A study of Mus musculus with 28 samples.

Results

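The milk proteins are the product by which a mammary luminal cell is known, and 10 genes for them and for the secretory machinery around them were followed here through 28 RNA-seq libraries. The genes were Csn1s1, Csn1s2a, Csn2 and Csn3 (caseins), Wap and Lalba (whey proteins), Glycam1 and Ltf (a secreted mucin and an iron-binding defence protein), and Btn1a1 and Xdh (partners in the membrane of the milk fat globule). They were taken as the rows of the deposited counts whose Ensembl ID belongs to these symbols, and all 10 were found among 50600 gene IDs. Cells were sorted from the mammary glands of 7 adult female PdgfrαCre R26mTmG mice on a C57BL/6 background, 4 of them untreated and 3 treated with estrogen plus progesterone (E+P). In these mice GFP marks cells that expressed Pdgfra-driven Cre at any time, together with their progeny, and tdTomato marks all other cells, so the label records history and not current expression. Each mouse gave GFP+ and tdTomato+ luminal cells (CD49f low, EpCAM+) and GFP+ and tdTomato+ stromal cells (CD49f-, EpCAM-), after depletion of CD31+, Ter119+ and CD45+ cells. This made 8 groups of 3 or 4 libraries. The methods give E+P pellets of 0.14 mg estradiol and 14 mg progesterone worn for 14 days, in a passage on wild-type mice, and an age of 10 to 12 weeks for adult mice of this kind. None of the mice was described as pregnant or lactating.

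Milk protein genes are switched on in steps as luminal progenitors become alveolar cells. Progesterone drives the side branching and alveolar budding that precede secretion, and prolactin then acts through its receptor, JAK2 and STAT5 to raise casein and whey protein transcription, while Elf5 commits progenitors to the alveolar fate. Caseins are generally early markers of this path, whereas Wap and Lalba mark late pregnancy and lactation. Csn3 (κ-casein, which keeps casein micelles in solution), Ltf and Btn1a1 can also be found in luminal progenitors of the resting gland.

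Reads counted on genes ranged from 8623383 to 24583803 per library. Levels are given as CPM, read counts relative to a library size scaled by edgeR's TMM method, and 3 counts corresponded to 0.122 to 0.308 CPM in a library, a floor that covers counting error only. No library was a duplicate of another. As a check of the sort, 12 luminal marker genes summed to 4936 to 9397 CPM in the luminal libraries and to 3.97 to 579 CPM in the stromal ones. For adult mice of this line the methods describe a random choice over several litters. The p-values measure the spread between the libraries of a group, which come from different mice. Libraries of the same mouse in different groups are treated as independent, save in fits with a term for the mouse (the mouse as a block). Unless another test is named, a gene is called when the edgeR quasi-likelihood test gave a Benjamini-Hochberg adjusted p below 0.01 over all genes tested in that comparison.

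The caseins lie together on mouse chromosome 5 (GRCm38, GENCODE M21). Csn1s1 occupies chr5:87666208-87682578 on the plus strand, Csn2 chr5:87692624-87699630 on the minus strand, Csn1s2a chr5:87774567-87788797 on the plus strand and Csn3 chr5:87925579-87932665 on the plus strand. Ltf is on chromosome 9, Wap on chromosome 11, Btn1a1 on chromosome 13, Lalba and Glycam1 on chromosome 15 and Xdh on chromosome 17. All 10 are protein-coding, and counts were made over their exons. Csn3 overlaps 1700066N21Rik on the opposite strand and Xdh overlaps CT025731.2 on the same strand, so reads of these pairs may not be fully separated.

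RefSeq promoter sequence (GRCm38.p6) was given for 7 of the 10 genes, all but Csn3, Btn1a1 and Xdh. The 250 bases before each start were searched for TTCNNNGAA, the palindromic core that STAT proteins recognise, which reads alike on both strands. Of 32851 windows of this length over all genes, 7.02% held a match, and 3 of the 7 windows did, those of Csn1s1, Csn2 and Glycam1. No match was found in the windows of Csn1s2a, Wap, Lalba and Ltf, which says only that these letters are not in these bases. The promoters of Csn1s1, found mostly in luminal cells here, and Glycam1, found mostly in stroma, are shown because both hold a match, which is in capitals. The Csn1s1 window is chr5:87665958-87666207 (plus strand, match from 100 to 92 bases before the start) and the Glycam1 window is chr15:103565082-103565331 (minus strand, match from 145 to 137 bases before the start).
Csn1s1: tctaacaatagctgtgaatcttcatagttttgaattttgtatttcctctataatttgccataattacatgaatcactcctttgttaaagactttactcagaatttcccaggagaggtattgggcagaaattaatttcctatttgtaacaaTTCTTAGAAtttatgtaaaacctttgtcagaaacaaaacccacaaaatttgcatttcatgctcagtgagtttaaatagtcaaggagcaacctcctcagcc
Glycam1: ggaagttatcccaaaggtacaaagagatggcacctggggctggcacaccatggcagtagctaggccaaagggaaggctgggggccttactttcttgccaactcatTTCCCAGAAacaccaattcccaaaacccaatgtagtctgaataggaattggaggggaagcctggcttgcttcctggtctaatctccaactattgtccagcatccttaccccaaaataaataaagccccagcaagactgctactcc

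For Csn2, whose RefSeq start lies downstream of the start GENCODE gives, so that the match falls inside the gene as GENCODE draws it, 29 bases around the match at chr5:87699500-87699528 (minus strand, 93 to 85 bases before the RefSeq start) are shown beside those of Csn1s1 at chr5:87666098-87666126, because both genes were high in the same mice. Csn1s2a was also high in these mice, and its window held no match. A match is a description of sequence, and binding was not measured.
Csn1s1 site: tttgtaacaaTTCTTAGAAtttatgtaaa
Csn2 site: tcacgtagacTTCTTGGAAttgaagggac

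The 10 genes fell into 5 patterns over the 8 groups, as the plot of all members by group shows. Csn3, Ltf, Lalba and Btn1a1 were highest in GFP+ luminal cells of untreated mice and lower in E+P-treated cells. Csn1s1, Csn2 and Csn1s2a varied widely between mice, with a single mouse of each treatment above the rest of its group in luminal cells. Csn1s1 in GFP+ luminal cells was at 95.3 CPM or more in every treated mouse, against an untreated median of 1.79 CPM. Xdh was higher in stroma than in luminal cells of the same subset and treatment, and Glycam1 was found in tdTomato+ stroma. Wap was close to 0 throughout. Per kilobase of exon, which allows levels of different genes to be compared, untreated GFP+ luminal cells held 182 CPM per kb of Csn3, 153 of Ltf, 32.8 of Btn1a1, 26.1 of Xdh and 17.7 of Lalba, against 5.83 of Csn1s1, 3.12 of Csn2, 0.573 of Csn1s2a and 0.0200 of Wap. After E+P the same cells held 92.3 CPM per kb of Csn3, 49.4 of Csn1s1, 9.67 of Ltf, 8.56 of Csn2 and 1.28 of Lalba.

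**Figure D1:**
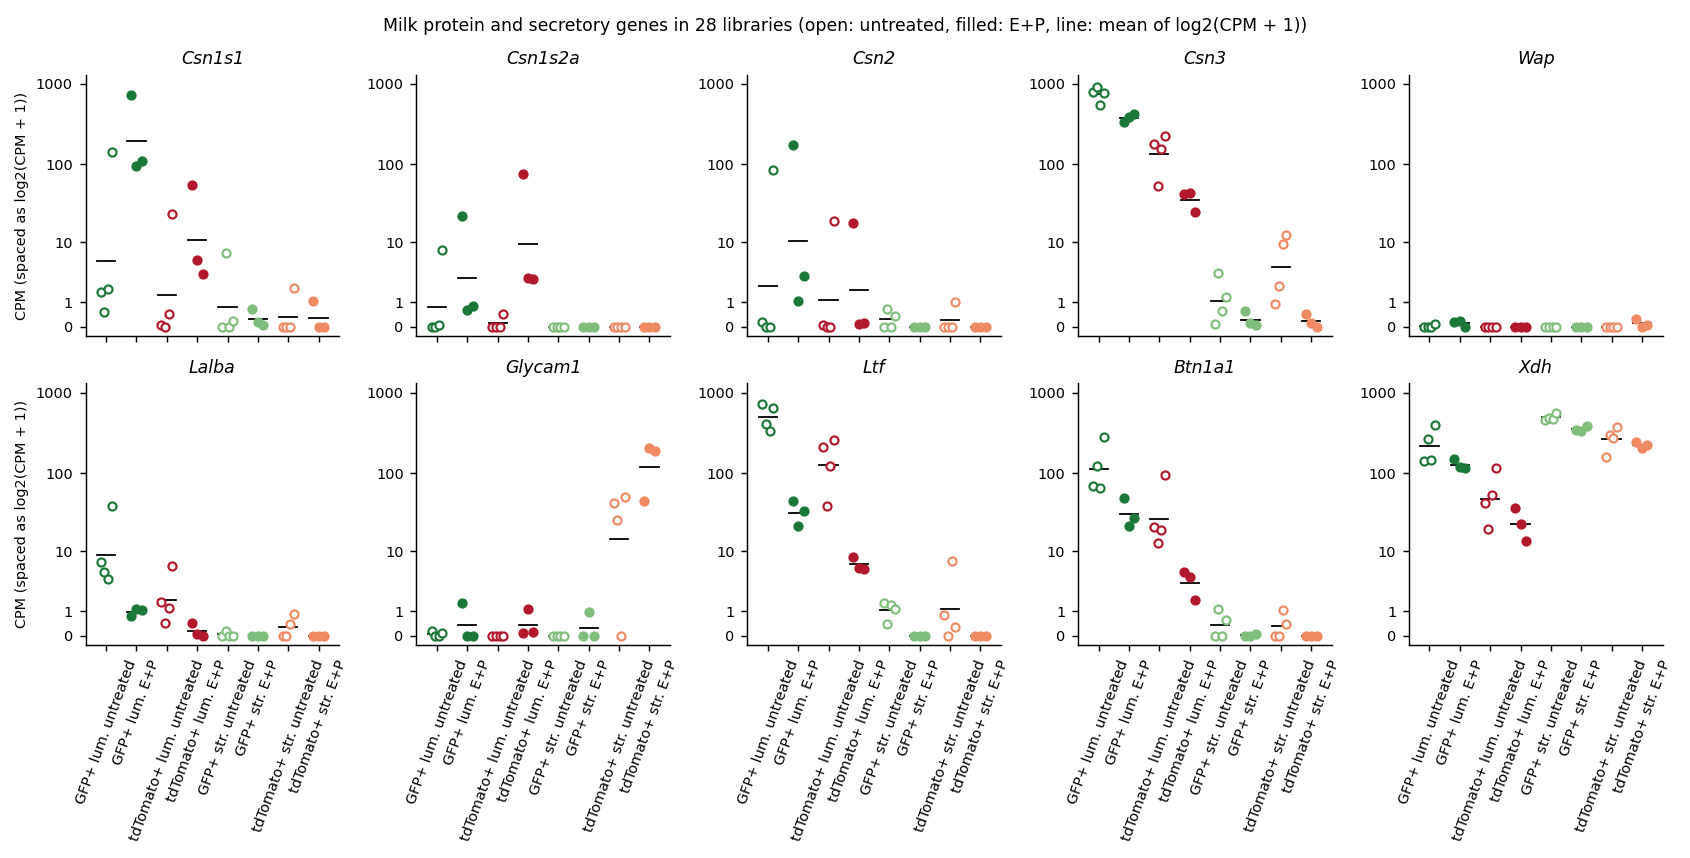
CPM of the 10 genes in each of 28 libraries, on an axis spaced as log2(CPM + 1), with open points for untreated mice, filled points for E+P-treated mice, and a line at the mean of log2(CPM + 1) in each group. Csn3 and Ltf step down from GFP+ to tdTomato+ luminal cells and from untreated to E+P, 1 untreated mouse stands above the others in Csn1s1, Csn2 and Csn1s2a, Xdh is highest in GFP+ stroma, and Glycam1 exceeds 2 CPM in tdTomato+ stroma only.

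Whether ovarian hormones alter milk gene expression in luminal cells was asked by comparing 3 E+P-treated with 4 untreated mice in each subset. Ltf, the gene of lactoferrin, fell in both. In GFP+ luminal cells Ltf was at 719, 414, 336 and 644 CPM in the untreated mice and at 45.1, 21.7 and 33.4 CPM in the E+P mice. The groups were far apart, with every treated mouse below every untreated one, and the log2 fold change was -4.00 ± 0.58 (SE; edgeR adjusted p = 0.00142). In tdTomato+ luminal cells Ltf was at 212, 39.1, 122 and 262 CPM without hormones and at 8.43, 5.90 and 5.61 CPM with them. These groups did not overlap either, and the log2 fold change was -4.56 ± 0.61 (edgeR adjusted p = 0.000305). The call in GFP+ cells was lost when any 1 of the 3 treated mice was left out (edgeR adjusted p of 0.0111, 0.0179 and 0.012 without E+P mice 1, 2 and 3), while the fold change stayed between -4.31 and -3.76 over all mice left out in turn. Beside these falls, the summed level of 12 luminal markers was 7461 ± 946 CPM (SD, n = 4) in untreated and 5707 ± 754 CPM (n = 3) in treated GFP+ luminal cells, and 9288 ± 148.7 and 8926 ± 119 CPM in tdTomato+ luminal cells. In sorted bulk samples, fewer cells that express a gene and less RNA of it per cell cannot be told apart.

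Csn3 had the highest group mean of the 4 caseins per kilobase of exon in each luminal group and was present in every mouse. In E+P mouse 1, however, Csn1s1 exceeded it in GFP+ luminal cells (115 against 80.7 CPM per kb) and Csn1s2a exceeded it in tdTomato+ luminal cells (21.6 against 10.2 CPM per kb). GFP+ luminal cells held 796, 910, 540 and 769 CPM of Csn3 in untreated mice and 335, 388 and 427 CPM after E+P. All treated values were lower, by a log2 fold change of -0.997 ± 0.372, which was not called (edgeR adjusted p = 0.0931). In tdTomato+ luminal cells Csn3 was at 180, 53.9, 154 and 226 CPM untreated and at 42.2, 44.1 and 24.98 CPM after E+P. Here too the ranges were separate, and Csn3 fell with a log2 fold change of -2.02 ± 0.39 (edgeR adjusted p = 0.00281). This call was lost without untreated mouse 1 or 4 (edgeR adjusted p of 0.0113 and 0.0105) and without E+P mouse 1, 2 or 3 (0.0154, 0.0157 and 0.0217), with fold changes from -2.30 to -1.79.

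Lalba, the regulatory subunit of lactose synthase, and Btn1a1, butyrophilin of the fat globule membrane, lay lower in every treated mouse than in any untreated one in both subsets, but did not pass the threshold. Lalba was at 7.03, 5.02, 3.99 and 38.6 CPM in untreated GFP+ luminal cells and at 0.768, 1.1 and 1.09 CPM with hormones. The difference on the log2 scale was -3.79 ± 1.07 (edgeR adjusted p = 0.0344), and in tdTomato+ cells, at 1.57, 0.429, 1.18 and 6.28 against 0.409, 0.0447 and 0 CPM, it was -4.26 ± 1.40 (edgeR adjusted p = 0.04). The untreated values were spread by mouse 4, which was highest in both subsets.

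Btn1a1 was at 70.2, 125, 65.2 and 280 CPM in untreated and at 49.3, 21.8 and 27.4 CPM in treated GFP+ luminal cells, a log2 fold change of -2.06 ± 0.74 (edgeR adjusted p = 0.0834). In tdTomato+ luminal cells its values were 21.2, 12.8, 19.4 and 94.0 CPM against 5.15, 4.25 and 1.75 CPM, a log2 fold change of -3.30 ± 0.83 (edgeR adjusted p = 0.0119). Untreated mouse 4 was again the highest of its group, and without it the tdTomato+ difference passed the threshold at -2.27 (edgeR adjusted p = 0.00594). Xdh, xanthine dehydrogenase, which is needed for fat droplet secretion besides its role in purine breakdown, overlapped between treatments. It was at 142 to 402 CPM (median 207) in untreated and 115 to 152 CPM in treated GFP+ luminal cells, with a log2 fold change of -0.91 ± 0.54 (edgeR adjusted p = 0.288) there and of -1.20 ± 0.55 (0.131) in tdTomato+ cells.

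The calcium-binding caseins Csn1s1 (αS1-casein), Csn2 (β-casein) and Csn1s2a (αS2-like casein) varied widely between mice of a group. In GFP+ luminal cells Csn1s1 was at 1.68, 0.513, 1.91 and 142 CPM in untreated mice 1 to 4 and at 721, 95.3 and 109 CPM in E+P mice 1 to 3. All 3 treated mice exceeded untreated mice 1 to 3, but untreated mouse 4 lay among the treated ones. In tdTomato+ luminal cells of the same mice, Csn1s1 was at 0.0542, 0, 0.442 and 23.6 CPM and then at 55.5, 5.59 and 3.45 CPM. Untreated mouse 4 and E+P mouse 1 were again the highest of their groups. The log2 fold changes of 3.08 ± 1.91 and 1.81 ± 1.93 were not called (edgeR adjusted p of 0.312 and 0.526).

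Csn2 followed the same mice. It was at 0.129, 0, 0 and 86.3 CPM in untreated GFP+ luminal cells and at 173, 1.1 and 3.22 CPM after E+P, and at 0.0542, 0, 0 and 18.9 CPM against 17.8, 0.0894 and 0.100 CPM in tdTomato+ luminal cells. Untreated mouse 4 alone exceeded E+P mice 2 and 3 in both subsets, and the log2 fold changes were 1.45 ± 2.33 (edgeR adjusted p = 0.731) and 0.26 ± 2.53 (0.953). Csn1s2a in GFP+ luminal cells was at 0, 0, 0.0578 and 7.97 CPM untreated and at 22.0, 0.605 and 0.783 CPM treated, with a log2 fold change of 1.95 ± 1.72 (edgeR adjusted p = 0.492). In tdTomato+ luminal cells it was at 0, 0, 0 and 0.448 CPM without hormones and at 75.7, 2.95 and 2.90 CPM with them. There the ranges were separate, all treated mice being higher, as for 17.4% of all genes tested, at a log2 fold change of 7.55 ± 2.26 that was not called (edgeR adjusted p = 0.027).

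Because 2 mice carried most of the luminal reads of Csn1s1, Csn2 and Csn1s2a, the tests were repeated without those mice. This choice was made after their values were seen and from the very genes tested. Without untreated mouse 4, Csn1s1 in GFP+ luminal cells had a log2 fold change of 7.70 (edgeR adjusted p = 0.00824). Without E+P mouse 1 the directions of Csn2 and Csn1s2a in GFP+ cells turned, to -3.33 (0.56) and -1.53 (0.688), and those of Csn1s1 and Csn2 in tdTomato+ cells turned to -0.45 (0.914) and -5.57 (0.405). Without both mice, Csn1s1 was higher after E+P in GFP+ cells by 6.12 (edgeR adjusted p = 0.000853) and in tdTomato+ cells by 4.86 (0.00253), and Csn1s2a was higher in tdTomato+ cells by 8.65 (0.00107).

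Of the 8 members that passed the low-count filter in luminal cells, 1 was called in GFP+ cells (Ltf, lower) and 2 in tdTomato+ cells (Ltf and Csn3, lower). Of all 16538 genes tested, 5.96% and 14.1% were called in these comparisons, and 2.78% and 6.44% were called as lower. The median log2 fold change of the 8 was -0.95 in GFP+ and -1.61 in tdTomato+ cells, beside -0.03 and -0.05 for all genes. The ranges of Csn3, Lalba, Ltf and Btn1a1, 4 of the 8, were entirely lower after E+P in both subsets, as were those of 12.6% and 18.1% of all genes tested. The responses of Csn1s1, Csn1s2a and Csn2 pointed up and carried the widest errors, as the plot of fold changes shows.

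**Figure D2:**
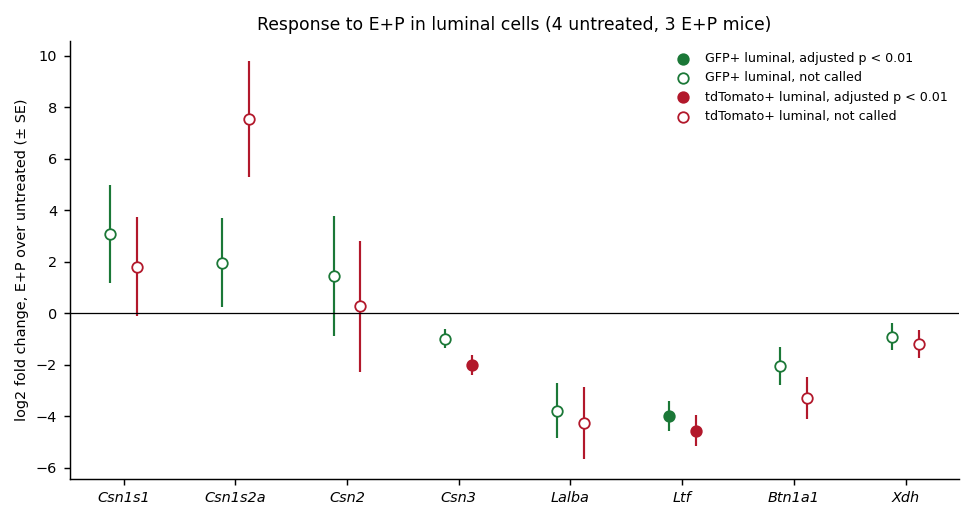
Log2 fold change of E+P-treated (n = 3) over untreated (n = 4) luminal cells, with its SE, for the 8 genes tested, in GFP+ (green) and tdTomato+ (red) cells, where filled points had an adjusted p below 0.01. Ltf lies near -4 in both subsets with short bars, and Csn1s1, Csn1s2a and Csn2 lie above 0 with the longest bars.

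Wap (whey acidic protein) and Glycam1 were removed by the filter in luminal cells. Wap had 1 count over the 4 untreated GFP+ luminal libraries, 5 over the 3 treated ones and 0 in all 7 tdTomato+ luminal libraries. The exact permutation test of the GFP+ values gave p = 0.257 (two-sided). Glycam1 in tdTomato+ luminal cells had 0 counts in all 4 untreated libraries and 1, 25 and 2 counts in the treated ones, so that it was at least 10.5-fold higher against a floor of 3 counts over the untreated group. This bound rests on E+P mouse 2, without which it was 2.21-fold. Its exact permutation p was 0.0286, the smallest that 3 against 4 mice allow, and 0.286 after Benjamini-Hochberg adjustment over the 10 exact tests run.

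The 2 luminal subsets of each mouse were compared next, to ask whether luminal cells with a history of Pdgfra expression differ in milk genes from the rest. Nearly all members were higher in GFP+ cells. Csn3 was higher in GFP+ cells in 4 of 4 untreated and 3 of 3 treated mice, with mean levels of 754 ± 155 against 153 ± 72.7 CPM (SD, n = 4) without and 383 ± 45.8 against 37.1 ± 10.5 CPM (n = 3) with E+P. The log2 fold changes were 2.31 ± 0.35 (edgeR adjusted p = 0.000873) and 3.33 ± 0.43 (9.86e-05). Its 4 luminal groups were ordered from untreated GFP+ through treated GFP+ and untreated tdTomato+ to treated tdTomato+ cells, with no overlap between neighbours.

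Xdh was higher in GFP+ luminal cells in every mouse too, at 239 ± 123 against 57.6 ± 40.9 CPM untreated (log2 fold change 2.07 ± 0.51, edgeR adjusted p = 0.00992) and 129 ± 20.2 against 24.5 ± 11.7 CPM treated (2.36 ± 0.60, 0.00808). Ltf differed in the same direction by 1.75 ± 0.47 (edgeR adjusted p = 0.015) without and by 2.31 ± 0.58 (0.00751) with E+P. Lalba and Btn1a1 were likewise higher in GFP+ cells of all 7 mice. Only Csn3 kept its call when any single mouse was left out. The Xdh call in untreated mice was lost in 6 of the 7 fits with a mouse left out, and the Ltf and Xdh calls after E+P were lost in 5 of 7 each, with adjusted p up to 0.0559, 0.0554 and 0.0569.

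This made 2 of 8 members called in untreated mice and 3 of 8 in treated mice, all higher in GFP+ cells, where 15.4% and 25.4% of all genes tested were called and 6.98% and 11.3% were called as higher in GFP+ cells. The ranges of Csn3, Ltf and Xdh in untreated mice, 3 of 8, lay entirely higher in GFP+ cells (12.6% of genes tested), as did those of 6 of 8 members after E+P, all but Csn1s2a and Csn2 (27.7%). Fitting each mouse as a block, which uses the pairing, raised the counts to 8 of 8, all higher in GFP+ cells, and to 7 of 8, of which 6 were higher and Csn1s2a was lower in GFP+ cells. The block called 16.6% and 27.3% of all genes tested. With the block, Csn1s1 was higher in GFP+ cells by 2.76 (edgeR adjusted p = 0.0022) untreated and by 4.18 (5.28e-05) treated, and Csn2 by 2.17 (0.00302) and 3.49 (9.23e-05). The untreated values of Csn2 and Csn1s2a rest on mouse 4, since the other 3 mice had at most 2 counts of either gene in a library. Ltf and Btn1a1 were also called in untreated mice under the block (edgeR adjusted p of 0.0055 and 0.00406), and Lalba was called untreated (0.00368) but not after E+P (0.0128).

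Csn1s2a departed from this order. Untreated mouse 4, the one untreated mouse with more than 1 count, had 99 counts in GFP+ and 11 in tdTomato+ luminal cells. After E+P all 3 mice were higher in tdTomato+ cells, at 75.7 against 22.0 CPM, 2.95 against 0.605 CPM and 2.90 against 0.783 CPM. The log2 fold change of GFP+ over tdTomato+ cells after E+P was -1.87 ± 1.75 without the block (edgeR adjusted p = 0.43) and -1.97 with it (0.000369). Csn1s2b, a neighbouring casein gene at chr5:87808082-87824426 that is no member but is closely related, was at 0.391 to 2.86 CPM in GFP+ and 4.20 to 9.33 CPM in tdTomato+ luminal cells of treated mice, also higher in the latter in each of them (-2.34 ± 0.81, edgeR adjusted p = 0.0327, and -2.75, 0.00443, with the block). Reads that fit both Csn1s2a and Csn1s2b may be divided between them or lost.

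The subsets also differed in the make-up of their markers. Markers of hormone-sensing luminal cells summed to 1121 ± 837 CPM in GFP+ and 5251 ± 746 CPM in tdTomato+ untreated luminal cells (SD, n = 4), and markers of luminal progenitors to 3308 ± 628 and 979 ± 354 CPM. After E+P the hormone-sensing sums were 295 ± 78.0 and 3287 ± 772 CPM and the progenitor sums 3271 ± 228 and 685 ± 116 CPM (n = 3). The part of these markers in the differences of milk genes was not tested.

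**Figure D3:**
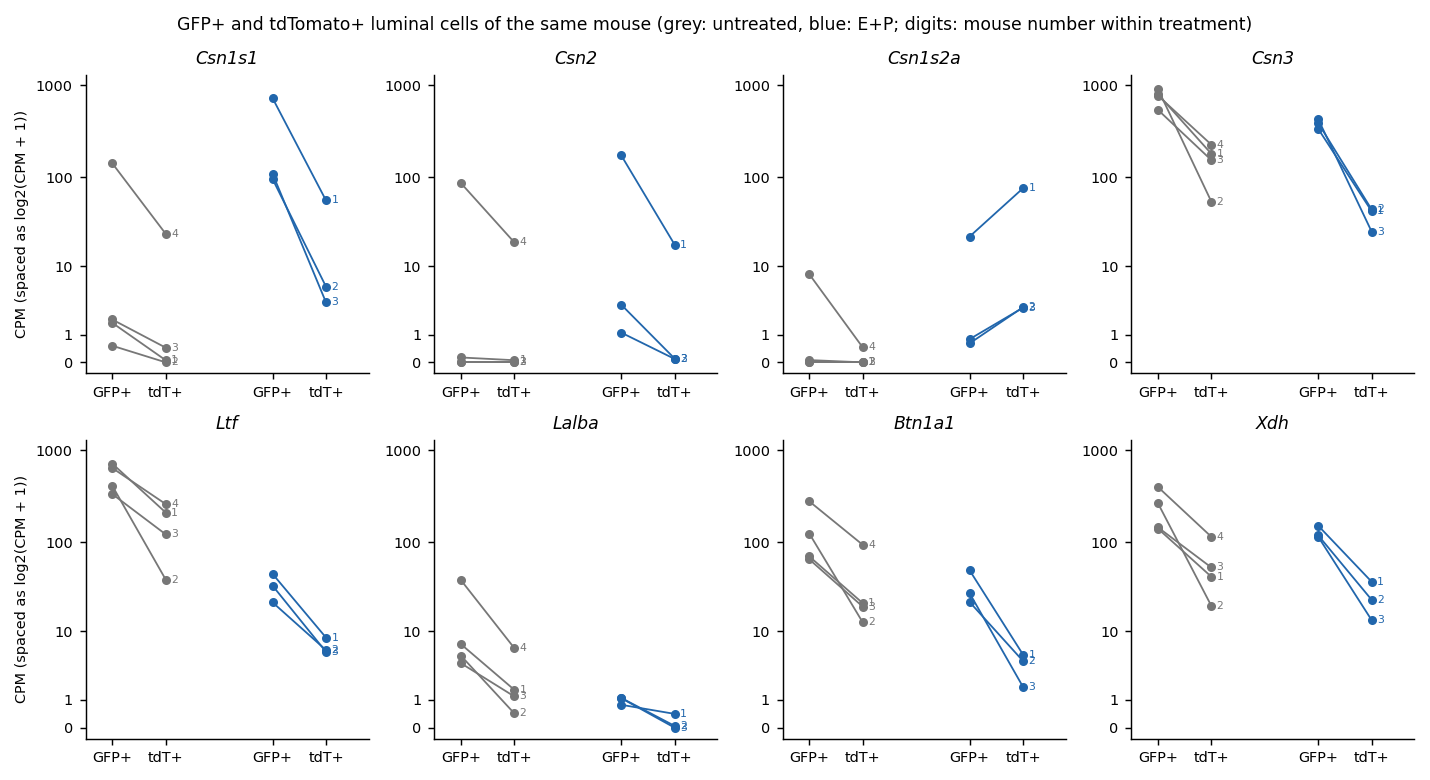
CPM of 8 genes in GFP+ and tdTomato+ luminal cells, with a line joining the cells of a mouse, for 4 untreated (grey) and 3 E+P-treated mice (blue), on an axis spaced as log2(CPM + 1). Lines fall from GFP+ to tdTomato+ cells for Csn3, Ltf, Btn1a1 and Xdh in every mouse, while those of Csn1s2a rise in all 3 treated mice.

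Whether the response to E+P itself differed between the subsets was tested as an interaction. None of the 8 members was called (2.27% of all genes were), none had an unadjusted p below 0.05 in edgeR (22.0% of genes did), and DESeq2 (6.39% of its genes with an adjusted p) and limma-voom (2.57%) called none either. DESeq2 gave no adjusted p for 3 of the 8, Csn1s1, Csn1s2a and Csn2. Fitted with the mouse as a block, by which 2.88% of all genes were called, Csn1s2a was called, with a response lower in GFP+ than in tdTomato+ cells by 6.06 on the log2 scale (edgeR adjusted p = 0.000874). That value includes the 3 untreated tdTomato+ libraries in which Csn1s2a had 0 counts. Its untreated side rests on mouse 4, which held nearly all luminal counts of Csn1s2a in untreated mice. Csn1s1 (1.42, 0.119) and Csn2 (1.32, 0.104) were not called with the block.

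In stroma the secretory members were scarce. Csn1s2a had 0 counts in all 14 stromal libraries. Lalba and Btn1a1 did not exceed 0.853 and 1.12 CPM, and Wap had 6 counts over all stromal libraries. Csn3 reached 0.896, 2.19, 9.61 and 12.5 CPM in untreated tdTomato+ stroma and stayed at or below 3.60 CPM in the other stromal groups. Ltf reached 7.43 CPM in untreated tdTomato+ stroma of mouse 3 and had 0 counts in all 6 treated stromal libraries. The 12 luminal markers summed to 90.9, 379, 579 and 21.4 CPM in untreated tdTomato+ stroma, which was 0.967%, 4.05%, 6.19% and 0.236% of the sum in tdTomato+ luminal cells of the same mice. For Csn3 these shares were 0.498%, 4.06%, 6.26% and 5.54%. For Ltf they were 0.381%, 0%, 6.06% and 0.109%, and for Btn1a1 0%, 0%, 5.48% and 0.403%. In GFP+ and in treated stroma the luminal markers summed to at most 97.4 CPM. The part of luminal RNA in the stromal values was not tested.

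A single stromal library held more Csn1s1 than the matching luminal cells. GFP+ stroma of untreated mouse 2 had 95 counts of Csn1s1 (7.12 CPM), against 5 counts (0.513 CPM) in GFP+ luminal cells of that mouse, and it also had 9 counts of Csn2. The other 13 stromal libraries had between 0 and 21 counts of Csn1s1.

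None of the 5 members tested in GFP+ stroma and none of the 5 tested in tdTomato+ stroma was called with E+P, where 0.231% and 0.124% of 17783 genes were called. At an unadjusted p below 0.05, edgeR gave 2 members in each, Ltf and Xdh in GFP+ and Csn3 and Ltf in tdTomato+ stroma, as for 8.04% and 15.6% of all genes. DESeq2 called 0 members in GFP+ stroma, where it called 1.08% of genes, and Csn3 and Ltf in tdTomato+ stroma, where it called 2.13%. Limma-voom called none in either, beside 0.562% and 0.0450% of genes.

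Xdh had the opposite distribution from the other fat globule gene. It was at 460, 486, 473 and 558 CPM in untreated GFP+ stroma, above all untreated luminal libraries, and at 350, 337 and 389 CPM under hormones (log2 fold change -0.49 ± 0.19, edgeR adjusted p = 0.443). In tdTomato+ stroma it was at 158, 296, 277 and 373 CPM untreated and at 242, 209 and 228 CPM treated. GFP+ stroma exceeded tdTomato+ stroma in all 7 mice, with a log2 fold change of 0.71 ± 0.14 over both treatments (edgeR adjusted p = 0.000302), and this call held in each fit with 1 mouse left out. Beside it, fibroblast markers summed to 31228 to 60618 CPM in GFP+ stroma and to 1743 to 6207 CPM in tdTomato+ stroma, and adipocyte markers to 28.9 to 213 CPM and 304 to 1091 CPM. Their part in the difference was not tested.

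Glycam1 encodes a mucin of milk that high endothelial venules of lymph nodes also make, as a ligand of L-selectin. It was at 42.4, 25.8, 0 and 50.1 CPM in tdTomato+ stroma of untreated mice and at 45.3, 204 and 188 CPM in that of treated mice, a log2 fold change of 2.30 ± 1.21 (edgeR adjusted p = 0.406). The treated values overlapped the untreated ones, and untreated mouse 3 had no read. In GFP+ stroma Glycam1 had 0 counts in 6 of 7 libraries and 18 counts (0.943 CPM) in E+P mouse 2. The difference between GFP+ and tdTomato+ stroma was called (edgeR adjusted p = 0.000982), and no fold is given because all 4 untreated GFP+ libraries were at 0. Glycam1 and Xdh were thus 2 of 5 members called between the stromal subsets, where 42.0% of all genes tested were called. Without E+P mouse 1 or without E+P mouse 2, 1 of the 5 was called.

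Of 9 endothelial markers, 7 were tested in stroma and none was called with E+P in tdTomato+ stroma, where 0.124% of all genes tested were called. Their log2 fold changes there ran from -1.07 (Tek) to 3.22 ± 1.19 (Madcam1, edgeR adjusted p = 0.231), with 1.81 ± 0.58 for Cdh5 (0.152), and the smallest adjusted p was that of Cdh5. Kdr was at 1.46, Pecam1 at 1.18, Emcn at 0.04 and Vwf at -0.67. Between the stromal subsets Pecam1, Cdh5, Emcn, Vwf and Madcam1 were lower in GFP+ stroma (edgeR adjusted p at or below 0.00144), while Tek was higher there (2.46, 1.21e-05) and Kdr was not called (0.34, 0.446). Madcam1, an adhesion molecule of high endothelial venules, was at 2.69, 0.0876, 0 and 3.41 CPM in untreated and at 4.96, 25.9 and 12.1 CPM in treated tdTomato+ stroma, and at most 0.199 CPM in GFP+ stroma. Cdh5 (VE-cadherin) was at 30.6, 22.9, 9.49 and 19.2 CPM and then at 38.1, 105 and 74.4 CPM in the same tdTomato+ libraries. The mice with the most Glycam1 after E+P, 2 and 3, also had the most Madcam1 and Cdh5. The sum of all 9 endothelial markers was 72.8 to 143 CPM in untreated and 113 to 277 CPM in treated tdTomato+ stroma, while GFP+ stroma had 136 to 263 CPM. Chst4, which sulfates L-selectin ligands in these venules, had 0 counts in all 14 stromal libraries. The part of endothelial cells, against which the sort was gated by CD31, was not tested.

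**Figure D4:**
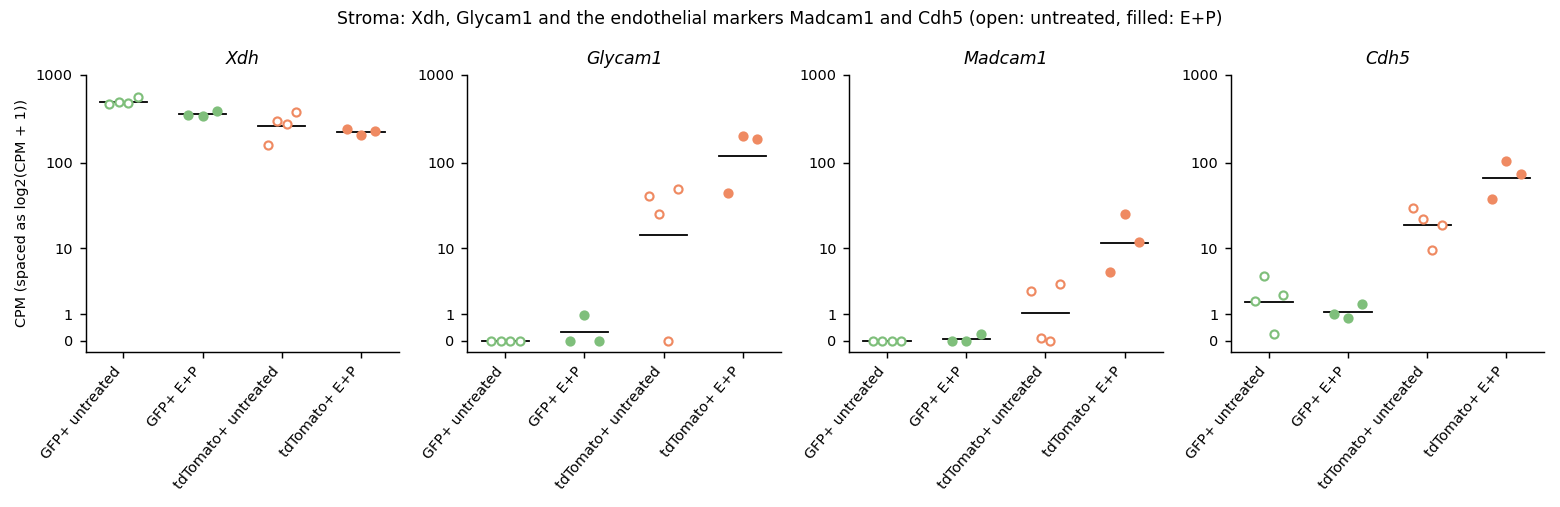
CPM of Xdh, Glycam1, Madcam1 and Cdh5 in 14 stromal libraries, on an axis spaced as log2(CPM + 1), with open points for untreated and filled points for E+P-treated mice and a line at the mean of log2(CPM + 1). Xdh lies between 158 and 558 CPM in all groups, and the means of the other 3 genes are higher in tdTomato+ than in GFP+ stroma, with E+P mice 2 and 3 on top.

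Luminal and stromal cells of the same mice were compared over both subsets. Where the block is not named, libraries of a mouse were treated as independent. In untreated mice 4 of 9 tested members were called as higher in luminal cells (Csn3, Ltf, Btn1a1 and Lalba) and Xdh was called as lower, where 55.0% of 19569 genes were called, 25.7% as higher. The log2 fold changes were 6.76 ± 0.53 for Csn3, 7.37 ± 0.63 for Ltf, 7.34 ± 0.68 for Btn1a1, 5.51 ± 0.87 for Lalba and -1.75 ± 0.28 for Xdh, with edgeR adjusted p at or below 1.34e-05. With the mouse as a block Csn1s2a was also called (edgeR adjusted p of 0.000249, against 0.146 without), and no fold is given because all stromal libraries were at 0. Nearly all untreated luminal counts of Csn1s2a came from mouse 4. Without that mouse its mean was 0.0193 CPM in GFP+ and 0 in tdTomato+ luminal cells. Csn1s1 missed the threshold at 3.97 ± 1.42 (edgeR adjusted p = 0.0185), and passed it at 6.69 (0.00542) without untreated mouse 2.

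After E+P, 5 members were called as higher in luminal cells (Csn1s1, Csn1s2a, Csn3, Ltf and Btn1a1) and Xdh as lower (-2.42 ± 0.33, edgeR adjusted p = 1.4e-06), where 51.6% of genes were called, 24.2% as higher. Csn3 differed by 9.14 ± 0.76 (edgeR adjusted p = 5.56e-10) and Csn1s1 by 8.005 ± 1.846 (0.000708), and the latter missed the threshold without E+P mouse 1 (9.48, 0.019). For genes without stromal counts the difference is a bound against a floor of 3 counts over the stromal group: in treated mice Csn1s2a was at least 524-fold higher in tdTomato+ luminal cells than in tdTomato+ stroma, Csn2 at least 1023-fold higher in GFP+ luminal cells than in GFP+ stroma, and Ltf at least 576-fold. The first of these bounds was 56.5-fold and the second 37.3-fold without E+P mouse 1, while that of Ltf stayed at or above 475-fold without any treated mouse. With the mouse as a block, Csn2 (edgeR adjusted p = 0.000383) and Lalba (0.00202) were called too. The response to E+P did not differ by a called amount between luminal cells and stroma for any of the 9 members (5.13% of genes were called), with 1 at an unadjusted p below 0.05 (Csn3) in edgeR, as for 24.5% of genes. DESeq2 and limma-voom called 0 of the 9, beside 9.16% and 4.62% of genes.

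Other genes of milk production were read from 4 lists. Beside the counts called in each list, 5.96% of all genes tested were called with E+P in GFP+ luminal cells. In tdTomato+ luminal cells 14.1% were called. Of 20 further milk or alveolar surface proteins, 17 were tested in luminal cells and none was called in GFP+ cells, while 4 rose in tdTomato+ cells with E+P (Csn1s2b, Folr1, Pthlh and Saa1). Folr1, the folate receptor, was at 5.78 ± 1.02 CPM in untreated and 39.4 ± 10.3 CPM in treated tdTomato+ luminal cells (log2 fold change 2.78 ± 0.18, edgeR adjusted p = 5.37e-07), and at 8.97 ± 0.423 and 9.07 ± 0.527 CPM in GFP+ luminal cells. Csn1s2b rose by 5.65 ± 0.90 (edgeR adjusted p = 0.000553) from 9 counts over the untreated group. The median log2 fold changes of the tested genes of this list were -0.003 and 0.179 in the 2 subsets.

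Of 20 genes of milk fat, 19 were tested. Fasn (fatty acid synthase) and Scd2 rose in GFP+ luminal cells, and Gpat4, Lpl and Scd2 rose and Scd1 fell in tdTomato+ luminal cells. Fasn went from 115 ± 28.7 to 283 ± 39.6 CPM in GFP+ cells (log2 fold change 1.27 ± 0.20, edgeR adjusted p = 0.00151). Lpl, the lipase that frees fatty acids from circulating triglyceride, went from 1.58 ± 0.895 to 29.03 ± 22.5 CPM in tdTomato+ cells (4.21 ± 0.62, 0.000504). Scd1, a desaturase like Scd2, fell there from 248.9 ± 94.6 to 83.6 ± 12.2 CPM (-1.55 ± 0.33, 0.00497) while Scd2 rose from 121 ± 59.4 to 323 ± 59.5 CPM (1.44 ± 0.35, 0.00971). Of 15 tested genes of lactose synthesis and ion transport, only Slc39a8, a zinc importer, was called, from 0.588 ± 0.404 to 17.5 ± 6.56 CPM in tdTomato+ cells (4.89 ± 0.68, 0.000317).

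The prolactin and STAT5 list of 20 genes was tested in full, with 2 genes higher (Stat5a and Stat5b) and Cited1 lower in GFP+ cells, and 6 higher (Stat5a, Stat5b, Jak2, Socs2, Id2 and Tnfsf11) and Cited1 lower in tdTomato+ cells. Stat5a went from 76.2 ± 17.3 to 270 ± 25.5 CPM in GFP+ (log2 fold change 1.80 ± 0.17, edgeR adjusted p = 8.42e-05) and from 121 ± 13.6 to 371 ± 82.0 CPM in tdTomato+ luminal cells (1.63 ± 0.17, 2.33e-05). Socs2, a STAT5 target and feedback inhibitor, went from 17.6 ± 15.8 to 209 ± 54.9 CPM in tdTomato+ cells (3.59 ± 0.55, 0.000703). Tnfsf11 (RANKL, the paracrine signal of progesterone) went from 0.393 ± 0.467 to 132 ± 11.8 CPM there (8.24 ± 1.04, 0.000205). In GFP+ cells Tnfsf11 was at 0.137 ± 0.183 and 7.18 ± 9.63 CPM (5.51 ± 1.26, edgeR adjusted p = 0.0131), which was not called. Cited1 went in tdTomato+ cells from 74.7 ± 41.8 to 10.7 ± 1.68 CPM (-2.78 ± 0.62, 0.00641). The prolactin receptor Prlr was not called in either subset, at 621 ± 484 and 130 ± 26.3 CPM in GFP+ and 3029 ± 420 and 1484 ± 440 CPM in tdTomato+ cells. Stat5a and Stat5b thus rose in the tdTomato+ libraries in which Ltf and Csn3 fell, and in the GFP+ luminal libraries in which Ltf fell. The median log2 fold changes in GFP+ and tdTomato+ cells were 0.217 and 0.161 for milk fat, -0.167 and -0.287 for lactose and ion transport, and 0.067 and 0.120 for the prolactin list. None of these lists had a called gene in stroma for E+P. Few genes were called there at all, 0.231% of those tested in GFP+ and 0.124% in tdTomato+ stroma.

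**Figure D5:**
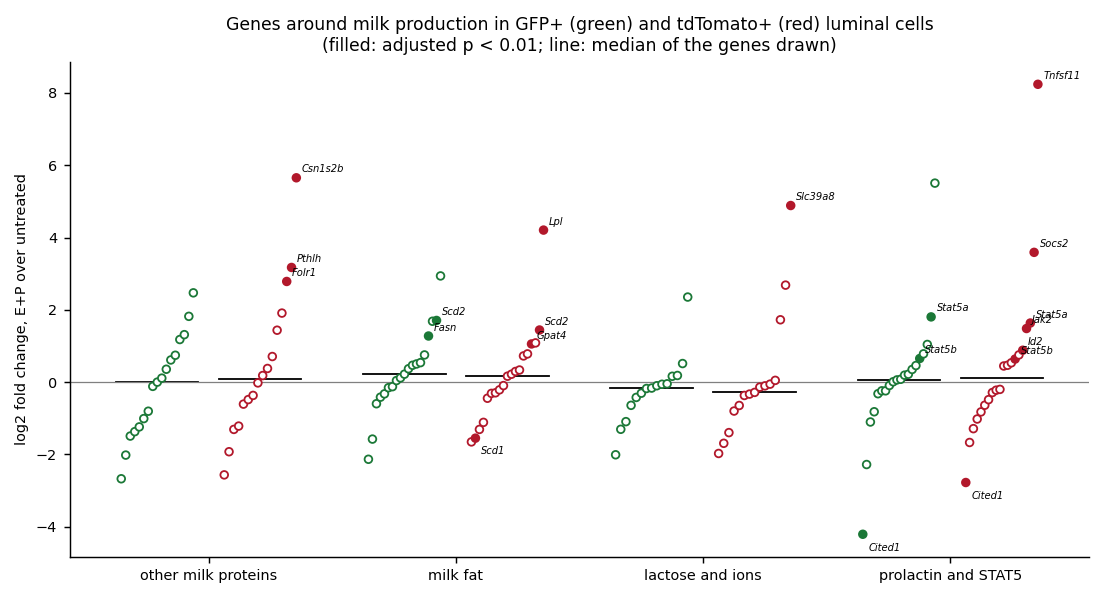
Log2 fold change of E+P-treated over untreated luminal cells for the tested genes of 4 lists, sorted within a list, for GFP+ (green) and tdTomato+ (red) cells, where filled and named points had an adjusted p below 0.01 and the line is the median. Saa1 in tdTomato+ cells is left out because all its untreated libraries were at 0. Most genes lie near 0, the called Tnfsf11, Csn1s2b, Slc39a8, Lpl, Socs2 and Pthlh in tdTomato+ cells stand above 3, and so does Tnfsf11 in GFP+ cells, which was not called.

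Over the 14 luminal libraries the members split by their correlation across libraries of log2 CPM, a description with no test because these libraries share mice and subsets. Csn3, Ltf, Lalba, Btn1a1 and Xdh were correlated at a Pearson's r between 0.727 (Ltf and Xdh) and 0.945 (Lalba and Btn1a1). Csn1s1, Csn1s2a and Csn2 were correlated at 0.754 to 0.868 with each other and at -0.522 to 0.424 with those 5. The genes most like the mean pattern of the 8 tested members, by Pearson's r over 14 libraries among genes with at least 10 CPM in a luminal group, were Plb1 (0.949), Slc43a2 (0.947), Rhoj (0.941), Muc4 (0.940), Tcim (0.933), Ppm1h (0.926), Ntng1 (0.925) and Ndst1 (0.918). Muc4, a membrane mucin, had group means of 404 and 180 CPM in untreated and treated GFP+ cells and 167.6 and 30.1 CPM in tdTomato+ cells.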

How the data were processed

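Read counts per gene were deposited by the authors for 28 libraries and used as they stand, with no normalization by the authors. Per the submitters' notes and the methods, reads of a stranded low-input kit were aligned and counted with STAR 2.5.2a against the GRCm38.p5 build and GENCODE genes, of a release not given in the sources used here. RNA of RIN 1 to 10 was fragmented for a time set by its quality, so libraries can differ in coverage along transcripts, and reads carry no molecular identifiers. GENCODE M21 gave symbols and coordinates for 50376 of 50600 IDs.

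Groups were taken from the sample titles. Counts were scaled by TMM (factors from 0.848 to 1.21 over 28 libraries), filtered with filterByExpr and tested, two-sided, with edgeR 4.0.16 (robust quasi-likelihood F-test, R 4.3.3) in 3 fits, of 14 luminal, 14 stromal and all 28 libraries. The SE of a log2 fold change is its size divided by the square root of F. Members removed by the filter were tested by exact permutation of mean log2 CPM with a prior count of 2. A group at 0 was given a floor of 3 counts over the group. GFP+ and tdTomato+, luminal and stromal samples with the same ID come from the same mouse. Deviations from group means of GFP+ and tdTomato+ luminal cells of a mouse correlated at 0.194 on average over 7 mice (0.0565 to 0.368), against -0.0746 between mice, and the values with the mouse as a block are given where they alter a call.

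The members, gene lists and tests were chosen with earlier results of these data known. Named genes are the members, up to 4 genes of each of 4 lists with the largest called change with E+P in luminal cells and a mean of at least 10 CPM, others of those lists where a count is spelled out, 8 genes by likeness, and Csn1s2b and the markers beside a result. Glycam1's endothelial neighbours, Madcam1, Cdh5 and Chst4, were picked after their values were seen. Alternatives were DESeq2 1.42.0 (size factors or Wald test), library size only, limma 3.58.1 (voom), no filter, an adjusted p of 0.05, a replicate block, only the groups compared, each mouse left out and, chosen after the data were seen, both mice with high caseins left out. The steps were tested on simulated data.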

Additional observations from a re-analysis of the deposited data

Results flagged for a closer look

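Dixon's test was run in groups of 4 untreated mice with a mean of at least 1 CPM. In 9 of 23 combinations of gene and group a library stood apart. Several reached that mean only through the library that stood apart, such as Csn2 in GFP+ luminal cells (median 0.0645 CPM). The combinations also share mice, so the count is a description and is not set against chance. In GFP+ luminal cells mouse 4 stood apart in Csn1s1 (142 CPM), Csn1s2a (7.97 CPM), Csn2 (86.3 CPM) and Lalba (38.6 CPM). In tdTomato+ luminal cells mouse 4 stood apart in Csn1s1 (23.6 CPM), Csn2 (18.9 CPM) and Btn1a1 (94.0 CPM). In GFP+ stroma mouse 2 stood apart in Csn1s1 (7.12 CPM), and in tdTomato+ stroma mouse 3 stood apart in Ltf (7.43 CPM).

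With the mouse as a block, the response to E+P differed between GFP+ and tdTomato+ luminal cells for Csn1s2a (log2 difference -6.06). The untreated side of that value rests on mouse 4. Without the block the response differed for Folr1 (-2.79, edgeR adjusted p = 0.000116) and for Slc39a8 (-4.93, 0.00744, and 0.0237 with the block). With the block alone it was also called as lower in GFP+ cells for Lpl (-2.56, edgeR adjusted p of 0.00176 against 0.095 without the block), Jak2 (-1.27, 0.00524 against 0.0342) and Gpat4 (-0.83, 0.00395 against 0.0278). It was higher in luminal cells than in stroma for Tnfsf11 (8.76), Lpl (3.54), Gata3 (2.83), Slc39a8 (2.41), Scd2 (1.68), Stat5a (1.58), Fasn (1.03), Id2 (0.88), Gpat4 (0.78) and Stat5b (0.67) and lower for Gpam (-1.62), with edgeR adjusted p from 2.88e-05 to 0.00486. With the block that of Id2 was 0.0108. For Gata3 the log2 fold changes with E+P were -0.32 in GFP+ luminal cells, -2.59 in GFP+ stroma and -3.52 in tdTomato+ stroma. For Gpam they were -0.16, 1.45 and 1.31 in the same order. None of these values was called, and the differences of both genes lay mostly in their stromal values.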

How the results depend on the processing

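The count of members called moved with the test in several comparisons, and the cause was not tested. All genes called moved with the settings too, so a moved count need not be particular to the members. For E+P in GFP+ luminal cells (1 called) the member count was 2 with the Wald test of DESeq2, at an adjusted p of 0.05 and with only the groups compared, 5 with the replicate number as a block, and 0 to 2 with a mouse left out. All genes called there numbered 2475 at 0.05, beside 985 in the main test. For E+P in tdTomato+ luminal cells (2 called) the member count was 4 with DESeq2, 5 at 0.05, 5 with the replicate number as a block, 1 with only the groups compared, 5 without both mice with high caseins, and 1 to 2 with a mouse left out. All genes called there numbered 4444 at 0.05 and 1111 without both mice, beside 2327 in the main test. Replicate numbers name different mice, whose deviations from the group means had a mean r of -0.0580 and -0.0420, so the block by number pairs nothing. Between the luminal subsets of untreated mice (2 called) the member count was 1 by library size only, 1 without the filter, 1 with only the groups compared, 5 at 0.05, 8 with the mouse as a block, 4 without both mice and 1 to 3 with a mouse left out. All genes called there numbered 4974 at 0.05, beside 2547 in the main test, and the block called 16.6% of genes. After E+P (3 called) the member count was 1 without the filter, 7 with the mouse as a block, 5 without both mice and 1 to 4 with a mouse left out. The block called 27.3% of genes there. The interaction of subset and E+P (0 called) gave 1 with the block, which called 2.88% of genes. In stroma E+P (0 called) gave 2 in GFP+ cells without the filter, and 2 with DESeq2 and 3 without the filter in tdTomato+ cells. Without the filter all genes called numbered 459 in GFP+ and 840 in tdTomato+ stroma, beside 41 and 22 in the main test. Between stromal subsets (2 called) the member count was 1 with limma-voom, 1 without both mice and 1 to 2 with a mouse left out. All genes called there numbered 5627 without both mice, beside 7466 in the main test.

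Directions turned for genes with no call. For E+P in luminal cells, Csn2 turned in tdTomato+ cells without untreated mouse 1 (-0.14), 2 (-0.16) or 3 (-0.13) and without E+P mouse 1 (-5.57, range to 7.69). Without E+P mouse 1, Csn1s1 turned in tdTomato+ cells (-0.45, range to 7.13), and Csn2 (-3.33, range to 10.07) and Csn1s2a (-1.53, range to 7.94) in GFP+ cells. Each upper end is the value without untreated mouse 4. The interaction of Lalba turned without E+P mouse 2 (-0.07) or 3 (-0.22, range to 2.64). In tdTomato+ stroma Csn1s1 turned with the replicate block (1.84) and without E+P mouse 2 (0.13, range from -5.92) or 3 (0.10). Csn2 between luminal cells and stroma of untreated mice turned without mouse 4 (-0.10, range to 6.13) and without both mice (-0.15). Of 530 fold changes of single members with all mice or without both mice with high caseins, 463 kept their direction and their side of the threshold. With 1 mouse left out 399 of 442 did so, and 12 turned in direction. All genes called numbered 985 for E+P in GFP+ luminal cells (169 to 2475 over the alternatives), 2327 in tdTomato+ luminal cells (1111 to 4444), 41 in GFP+ stroma (15 to 459) and 22 in tdTomato+ stroma (0 to 840), 2547 and 4206 between luminal subsets without and with E+P (978 to 4974 and 1690 to 6499), and 376 and 1004 for the interactions with subset and compartment (33 to 1089 and 359 to 2179). The Wald test of DESeq2 gave no adjusted p for Csn1s1, Csn1s2a and Csn2 in any comparison where they were tested. With 3 or 4 mice a group, and levels of a few counts for Wap and Glycam1 in luminal cells, small differences of these genes could not be detected.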
